A study of Mus musculus with 12 samples.

Results

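Arg1, Arg2, Nos2, Slc7a2, Ass1 and Odc1 carry arginine into macrophages, break it down, make it again or use its products, and they were followed over bone marrow derived macrophages (BMDMs) given neuroblastoma conditioned medium, the Syk inhibitor R788, both or neither. The 6 genes were chosen by name for their place in the pathway, out of 54232 genes in the deposited count table. All 6 passed the filter on low counts.

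Macrophages spend arginine in competing ways. The cationic amino acid transporter encoded by Slc7a2 (CAT2) brings arginine into the cell. Arginase 1 (Arg1, in the cytosol) and arginase 2 (Arg2, in mitochondria) split it into ornithine and urea, and ornithine decarboxylase (Odc1) turns ornithine into putrescine, the first polyamine. The inducible nitric oxide synthase (Nos2) instead oxidises arginine to nitric oxide and citrulline, and argininosuccinate synthase (Ass1), followed by argininosuccinate lyase (Asl), makes arginine from that citrulline again. Arg1 is known as a gene of IL-4 activated macrophages and of macrophages in tumors, where loss of arginine restrains T cells, and Nos2 as a gene of macrophages activated by interferon gamma and bacterial products.

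The macrophages came from wild type C57BL/6 mice, had been cultured for 5 days and were then treated for 24 h before RNA was taken for sequencing of poly(A) RNA. There were 6 groups with 2 libraries each (n = 2 in every mean ± SD): no addition (NS), 500 nM R788 alone, tumor-conditioned medium (TCM) of NB9464 cells, NB9464 TCM + R788, TCM of NBT3L cells and NBT3L TCM + R788. NB9464 is a mouse neuroblastoma line labelled as MYCN amplified and NBT3L a line labelled as without that amplification, so each kind of TCM stands for 1 cell line. R788 (fostamatinib) is the prodrug of a kinase inhibitor whose main target is Syk, the tyrosine kinase behind Fc receptors and other receptors of myeloid cells. The methods describe NB9464 TCM as DMEM without serum kept on the cells for 48 h. How NBT3L TCM was made, what medium NS cells received and the vehicle of R788 are not given in the sources used here, so a difference in base medium or serum and the tumor cell products in TCM cannot be told apart. Nor is it said whether the libraries of a group came from separate cultures or mice, so the tests measure the spread between these libraries.

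Library totals lay between 44977847 and 56449685 counts. Library SJ8 of the R788 group stood apart with 16149 genes detected, against 17275 to 18343 in the other 11 libraries, and the members' comparisons with the R788 group are also given without it, as log2 changes. All 8 macrophage markers passed the filter, and their summed level was 72383 and 72621 TPM in NS, 77235 and 84112 with R788, 74364 and 75772 in NB9464 TCM, 85083 and 85156 in NB9464 TCM + R788, 72570.4 and 77974 in NBT3L TCM and 84876 and 86874 in NBT3L TCM + R788 (TPM, counts divided by gene length and scaled to the same total in every library). The sum was higher with R788 in each medium, and most of it was Lyz2 (mean 65161.5 TPM in NS and 73876.1 with R788). Adgre1, Csf1r and Mertk were also higher with R788 in each medium, whereas Cd68, Itgam, Fcgr1 and Cd14 were lower in each. The neutrophil list (7 of 8 tested, Ly6g at no more than 4 counts) summed to 544 and 573 TPM in NS, 442 and 562 with R788, 699.6 and 749 in NB9464 TCM, 586 and 620.4 in NB9464 TCM + R788, 776 and 794 in NBT3L TCM and 597 and 613 in NBT3L TCM + R788, most of it S100a8 and S100a9. Like Arg1 and Nos2 this sum was highest in the TCM groups without R788. Of the genes tested, S100a8 alone rose with both TCMs, from an NS mean of 116 TPM to 465 (NB9464) and 558 (NBT3L). S100a9 fell from 303 to 210 and 179 TPM, and Ngp, Ltf, Mpo and Elane were also lower with both TCMs. Camp was lower with NB9464 TCM and higher with NBT3L TCM. The part of the neutrophil list in the Arg1 and Nos2 results was not tested. The fibroblast and endothelial list (4 of 4 tested) summed to 9.75 and 10.7 TPM in NS and 19.4 and 23.1 with R788, to 12.5 and 13.2 under NB9464 TCM and 16.2 and 18.8 with R788 added, and to 11.9 and 13.6 under NBT3L TCM and 21.6 and 22.1 with R788 added. The sum was thus higher with R788 in each medium, as were Col1a1 and Col1a2. Cdh5 was lower with R788 in each medium (means of 1.08 TPM in NS and 0.70 with R788). Pecam1 was higher with R788 in both TCMs but not without TCM (0.41 and 0.40 TPM). The part of these lists in the R788 results was not tested. The neuroblastoma list (4 of 7 tested, Th and Chga at 0) summed to 0 without TCM and at most 1.4 TPM with it. The T and NK, B, mast, eosinophil and dendritic lists stayed under 5 TPM in every library. In bulk RNA, fewer cells of a kind and less RNA per cell cannot be told apart.

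On GRCm38 (GENCODE M21) the genes are Slc7a2 (ENSMUSG00000031596, chr8:40862396-40922308, plus strand, 15 merged exons), Arg1 (ENSMUSG00000019987, chr10:24915221-24927484, minus strand, 7 merged exons), Arg2 (ENSMUSG00000021125, chr12:79130777-79156301, plus strand, 8 merged exons), Nos2 (ENSMUSG00000020826, chr11:78920787-78960254, plus strand, 29 merged exons), Ass1 (ENSMUSG00000076441, chr2:31470207-31520672, plus strand, 16 merged exons) and Odc1 (ENSMUSG00000011179, chr12:17544794-17551505, plus strand, 7 merged exons). Counts cover all exons of a gene, untranslated regions included. Exons of Arg1, Nos2, Ass1 and Odc1 share no base with exons of another gene. Arg2 shares 285 bases (20% of its length) with Vti1b on the opposite strand, a gene with 3855 to 5671 counts per library, and whether counting used the strand was not stated. It also shares 116 bases (8.12%) with Gm48780, an antisense gene with no more than 10 counts. Slc7a2 shares 635 bases (6.95%) with Gm26584, a lincRNA with no more than 2 counts.

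Promoter sequence was matched by symbol for 2 of the 6 genes in RefSeq (GRCm38.p6), Ass1 and Odc1, and is shown so that the windows searched for motifs can be seen. The RefSeq start sites, chr2:31470270 and chr12:17544873, lie 63 and 79 bases inside the GENCODE genes, and the sequences are printed up to the base before the GENCODE start, with 30 bases around the Ass1 motif on a line of their own. Capitals mark an E-box (CACGTG), the motif that MYC family and other basic helix-loop-helix factors can bind.
Ass1, chr2:31470020-31470206, plus strand: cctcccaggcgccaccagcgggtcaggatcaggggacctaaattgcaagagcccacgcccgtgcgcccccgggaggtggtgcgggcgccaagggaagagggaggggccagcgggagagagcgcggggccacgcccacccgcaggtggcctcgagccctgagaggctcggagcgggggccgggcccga
Ass1 motif, chr2:31470222-31470251, plus strand: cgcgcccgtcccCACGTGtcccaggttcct
Odc1, chr12:17544623-17544793, plus strand: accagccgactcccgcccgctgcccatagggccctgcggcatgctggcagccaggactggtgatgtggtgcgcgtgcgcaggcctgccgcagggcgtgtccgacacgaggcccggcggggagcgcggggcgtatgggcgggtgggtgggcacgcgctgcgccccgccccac
Windows of 300 bases (250 before and 50 after the RefSeq start) were searched on both strands. The Ass1 window held 1 E-box, at position -36 from the RefSeq start site and 27 bases after the GENCODE start, and 7.15% of all 32841 windows held one. The same letters held the 2 matches to the hypoxia response core NACGTGN, which 19.6% of windows held. Neither window held C/EBP (TTGCNNAA), interferon gamma activated (TTCNNNGAA), AP-1 (TGANTCA), cAMP response (TGACGTCA), NF-kappaB (GGANTTTCC), C/EBP-ATF (TGATGNAA) letters or a TATA box, and the Odc1 window held no E-box or hypoxia core either. These are letter matches and were not tested as binding sites.

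Levels are given as normalized counts (counts divided by the size factor of the library), which compare libraries for 1 gene. Levels of different genes are compared in TPM. A gene was called when its DESeq2 p-value, adjusted for the number of genes kept by the filter of DESeq2, was under 0.05. The plot of normalized counts by library shows all values.

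**Figure D1:**
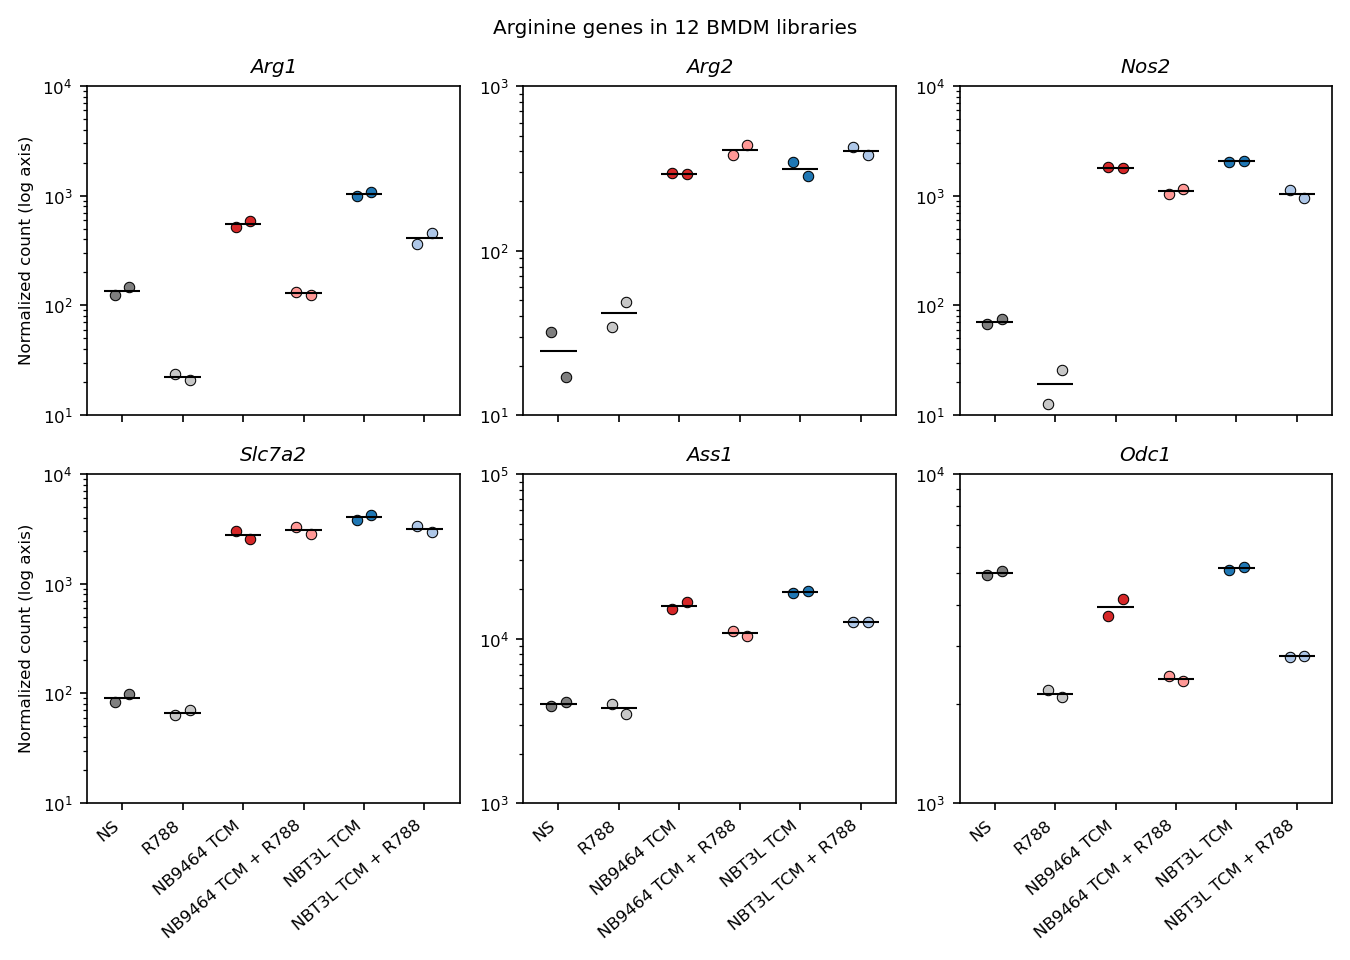
Normalized counts (log axis) of the 6 genes in each of 12 libraries, by group. Points are libraries and lines are means of 2. Slc7a2, Nos2, Arg2 and Ass1 were high in all 8 libraries with TCM, whereas the R788 groups sat below their partners for Arg1, Nos2 and Odc1 in every medium.

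Slc7a2 had the largest fitted rise of the 6 genes with either TCM in the absence of R788. Its 2 NS libraries held 82.6 and 98.6 normalized counts, the NB9464 TCM libraries 3049 and 2539 and the NBT3L TCM libraries 3827 and 4264. With R788 the levels were 63.6 and 70.3 without TCM, 3281 and 2844 under NB9464 TCM and 3353 and 2979 under NBT3L TCM. Every library with TCM was thus far above every library without it, whether R788 was present or not. Slc7a2 rose 30.8-fold (95% interval 24.8 to 38.4, DESeq2 adjusted p = 6.39e-205) with NB9464 TCM and 44.7-fold (95% interval 35.9 to 55.6, DESeq2 adjusted p = 3.84e-252) with NBT3L TCM. In the presence of R788 the rises against R788 alone were 45.7-fold (95% interval 36.3 to 57.4, DESeq2 adjusted p = 3.25e-233) and 47.2-fold (95% interval 37.6 to 59.3, DESeq2 adjusted p = 1.85e-237), log2 values of 5.51 and 5.56 that became 5.59 and 5.63 without SJ8.

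R788 moved Slc7a2 little. The log2 change was -0.43 (95% interval -0.82 to -0.05, DESeq2 adjusted p = 0.0834) without TCM and 0.13 (95% interval -0.11 to 0.38, DESeq2 adjusted p = 0.546) in NB9464 TCM, neither called, and the first was -0.51 without SJ8. In NBT3L TCM it fell by 0.35 on the log2 scale (95% interval -0.60 to -0.11, DESeq2 adjusted p = 0.0314), a call that was lost with edgeR (adjusted p = 0.0625) and without any 1 of the 4 libraries compared (-0.27 to -0.44). Slc7a2 was 1.45-fold (95% interval 1.22 to 1.71, DESeq2 adjusted p = 0.00032) lower in NB9464 than in NBT3L TCM, and this call was lost without SJ4 of the NB9464 TCM group (log2 -0.41, adjusted p = 0.0542) or SJ6 of the NBT3L TCM group (-0.45, adjusted p = 0.0636).

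Per length, Slc7a2 approached or passed Slc7a1 in TCM. In NS, Slc7a1 (CAT1, the transporter most cells use) stood at 21.3 ± 2.38 TPM and Slc7a2 at 0.631 ± 0.0648 TPM. In NB9464 TCM the values were 22.5 ± 1.72 TPM for Slc7a1 and 16.4 ± 2.7 TPM for Slc7a2, and in NBT3L TCM 11.3 ± 0.216 and 21.5 ± 1.63 TPM. Slc7a2 made up 2.48 and 3.33% of the sum of the pair in the NS libraries, 40.5 and 43.6% in NB9464 TCM and 64 and 67% in NBT3L TCM. With R788 its share was 2.19 and 2.32% without TCM, 47.5 and 54.4% under NB9464 TCM and 65.2 and 65.5% under NBT3L TCM. The NBT3L libraries were the ones in which Slc7a2 exceeded Slc7a1 with and without R788, and there Slc7a1 itself was lower than in NS (log2 -0.52, DESeq2 adjusted p = 9.00e-07), whereas it was higher in NB9464 TCM (0.33, adjusted p = 0.00299).

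Arg1 rose with TCM and fell with R788 in every medium. NS libraries held 125 and 148 normalized counts, NB9464 TCM libraries 517 and 582 and NBT3L TCM libraries 996 and 1092. With R788 the levels were 23.6 and 20.8 without TCM, 133 and 124 under NB9464 TCM and 366 and 457 under NBT3L TCM. No library with R788 overlapped its partner group without it, and the R788 libraries without TCM rested on 26 raw counts each. Arg1 rose 4.03-fold (95% interval 2.97 to 5.47, DESeq2 adjusted p = 4.97e-18) with NB9464 TCM and 7.66-fold (95% interval 5.65 to 10.4, DESeq2 adjusted p = 4.22e-38) with NBT3L TCM. It was 1.9-fold (95% interval 1.43 to 2.53, DESeq2 adjusted p = 0.000232) lower in NB9464 than in NBT3L TCM, and 3.19-fold (95% interval 2.34 to 4.36, DESeq2 adjusted p = 2.46e-11) lower when both media held R788. The first of these calls was lost without SJ6 of the NBT3L TCM group (log2 -0.86, adjusted p = 0.062).

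R788 lowered Arg1 6.16-fold (95% interval 4.11 to 9.24, DESeq2 adjusted p = 4.67e-17) without TCM, 4.27-fold (95% interval 3.13 to 5.81, DESeq2 adjusted p = 3.09e-18) under NB9464 TCM and 2.54-fold (95% interval 1.9 to 3.39, DESeq2 adjusted p = 1.08e-08) under NBT3L TCM. In NB9464 TCM + R788 the Arg1 libraries overlapped those of NS, with a log2 difference of -0.08 (95% interval -0.55 to 0.39, DESeq2 adjusted p = 0.841). In NBT3L TCM + R788 it stayed 3.02-fold (95% interval 2.22 to 4.11, DESeq2 adjusted p = 1.54e-11) above NS. TCM still raised Arg1 under R788: against R788 alone it was 5.82-fold (95% interval 3.88 to 8.75, DESeq2 adjusted p = 3.08e-16) higher in NB9464 TCM + R788 and 18.6-fold (95% interval 12.5 to 27.6, DESeq2 adjusted p = 2.13e-46) higher in NBT3L TCM + R788. Without SJ8 the log2 changes were -2.53 for R788 against NS, 2.45 for NB9464 TCM + R788 against R788 and 4.12 for NBT3L TCM + R788 against R788, all called.

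**Figure D2:**
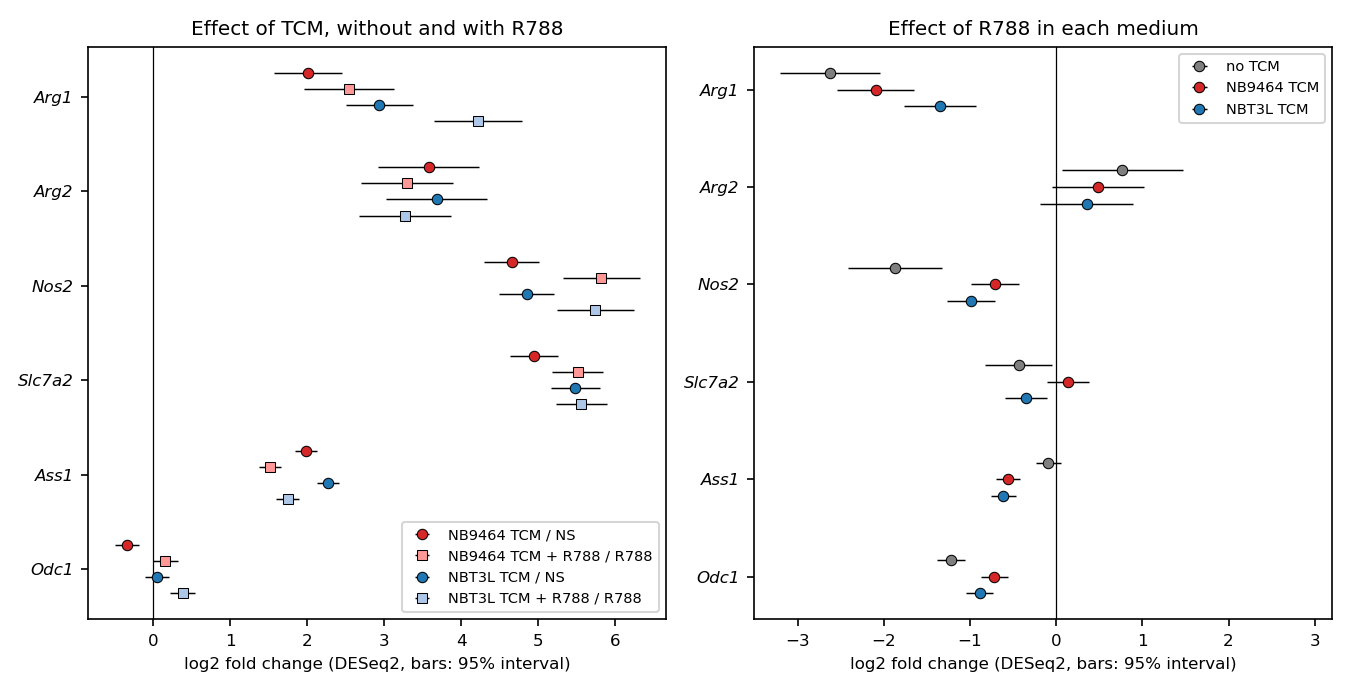
Log2 fold changes of the 6 genes with 95% intervals (DESeq2). Left, each TCM against its control, without R788 (circles, against NS) and with R788 (squares, against R788 alone), and right, R788 against no R788 in each medium. The TCM points of Slc7a2, Nos2, Arg2, Arg1 and Ass1 lie above 0 in all 4 comparisons, and the R788 points of Arg1, Nos2 and Odc1 lie below 0 in all 3 media.

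Arg2 also rose with TCM, and R788 did not lower it. NS libraries held 31.9 and 17.1 normalized counts, NB9464 TCM libraries 295 and 291 and NBT3L TCM libraries 345 and 284. With R788 the levels were 34.5 and 48.7 without TCM, 382 and 437 under NB9464 TCM and 425 and 379 under NBT3L TCM. The libraries with R788 lay above their partners without it in each medium. Arg2 rose 11.9-fold (95% interval 7.57 to 18.8, DESeq2 adjusted p = 2.33e-25) with NB9464 TCM and 12.8-fold (95% interval 8.12 to 20.2, DESeq2 adjusted p = 1.07e-26) with NBT3L TCM, and the log2 difference between the TCMs was -0.10 (95% interval -0.64 to 0.44, DESeq2 adjusted p = 0.889). The log2 change with R788 was 0.77 (95% interval 0.06 to 1.48, DESeq2 adjusted p = 0.096) without TCM, 0.48 (95% interval -0.05 to 1.02, DESeq2 adjusted p = 0.24) under NB9464 TCM and 0.36 (95% interval -0.18 to 0.89, DESeq2 adjusted p = 0.464) under NBT3L TCM, and none was called. Without SJ8 the first value was 0.49. Without TCM, Arg2 rested on 18 to 61 raw counts, and it was called higher with R788 when SJ1 of the NS group (1.29, adjusted p = 0.0334) or SJ7 of the R788 group (0.99, adjusted p = 0.0486) was left out. Against R788 alone, Arg2 was 9.79-fold (95% interval 6.47 to 14.8, DESeq2 adjusted p = 5.55e-26) higher in NB9464 TCM + R788 and 9.62-fold (95% interval 6.36 to 14.5, DESeq2 adjusted p = 1.26e-25) higher in NBT3L TCM + R788, log2 values of 3.29 and 3.27 that became 3.56 and 3.54 without SJ8. Its neighbour Vti1b changed by log2 0.25 with NB9464 TCM, 0.55 with NBT3L TCM and -0.11 with R788 without TCM, and the part of its reads in the Arg2 counts was not tested.

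Per length the arginases changed places with R788. In NS, Arg1 stood at 3.9 ± 0.379 TPM and Arg2 at 1.1 ± 0.493 TPM. In NB9464 TCM they stood at 13.2 ± 0.623 and 11 ± 0.499 TPM, and in NBT3L TCM at 22.7 ± 1.45 and 10.7 ± 1.49 TPM. Arg2 made up 15.3 and 28.5% of arginase TPM in the NS libraries, 43.8 and 47% in NB9464 TCM and 28.8 and 35.1% in NBT3L TCM. With R788 its share was 69.5 and 78.5% without TCM, 81.7 and 84.6% under NB9464 TCM and 56.4 and 64.5% under NBT3L TCM. Arg2 was thus the more abundant arginase in all 6 libraries with R788 and the less abundant in all 6 without it. The shares were not tested. Without TCM they rest on 18 to 61 raw counts of Arg2 and, with R788, on 26 of Arg1 in each library. Reads of Vti1b counted for Arg2 would raise the Arg2 share, and their part was not tested. The sum of both arginases was 4.91 and 5.07 TPM in NS and 2.3 and 2.96 TPM with R788, 24 and 24.2 and then 16.2 and 18.8 TPM in NB9464 TCM without and with R788, and 33.4 and 33.4 and then 22.5 and 22.8 TPM in NBT3L TCM. The loss in the sum with R788 was in each medium smaller, in relative terms, than that of Arg1.

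**Figure D3:**
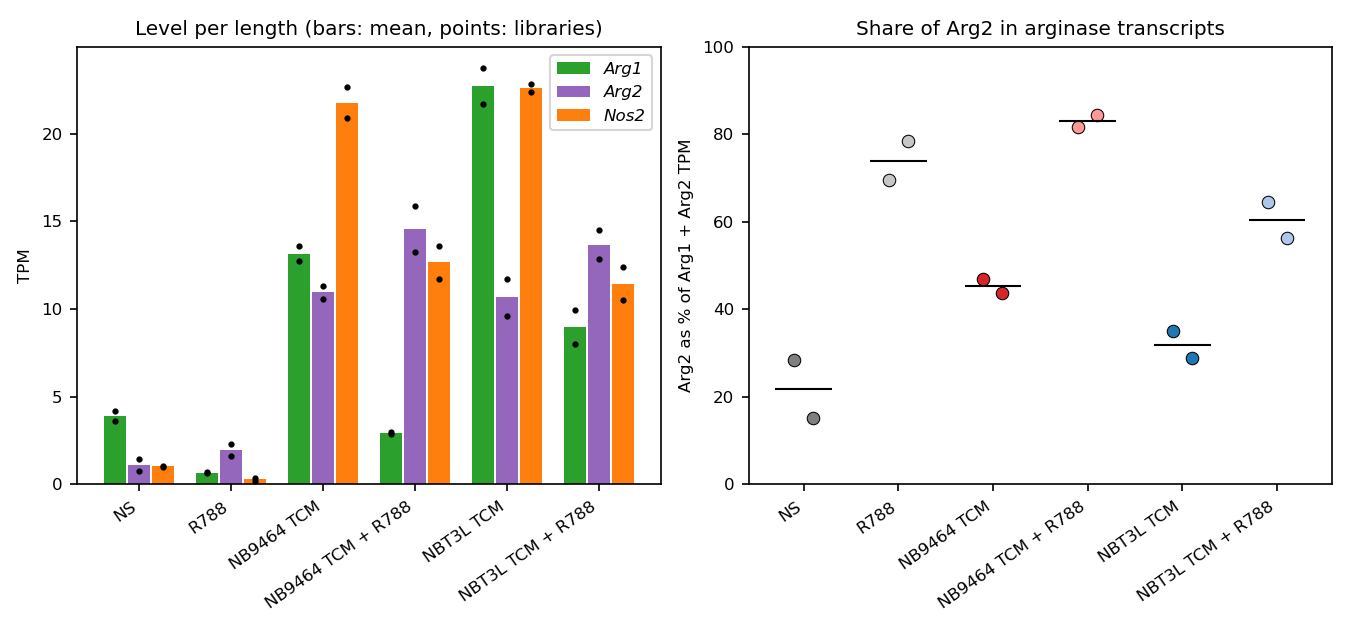
Left, levels of Arg1, Arg2 and Nos2 in TPM by group (bars are means of 2 libraries, points are libraries), and right, Arg2 as a percentage of Arg1 + Arg2 TPM in each library with group means. In the 6 libraries with R788 the Arg2 share lay between 56.4 and 84.6%, and in the 6 without it between 15.3 and 47.0%. Without TCM, Arg2 had 18 to 61 raw counts.

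Nos2 rose with TCM by a larger fitted fold than either arginase, and R788 lowered it in every medium. NS libraries held 67.6 and 74.9 normalized counts, NB9464 TCM libraries 1824 and 1771 and NBT3L TCM libraries 2035 and 2079. With R788 the levels were 12.7 and 25.5 without TCM, 1044 and 1153 under NB9464 TCM and 1121 and 958 under NBT3L TCM. The groups with and without R788 did not overlap in any medium, and the R788 libraries without TCM rested on 14 and 32 raw counts. Nos2 rose 25.2-fold (95% interval 19.7 to 32.3, DESeq2 adjusted p = 1.94e-142) with NB9464 TCM and 28.9-fold (95% interval 22.5 to 37, DESeq2 adjusted p = 2.11e-154) with NBT3L TCM. The log2 difference between the TCMs was -0.19 (95% interval -0.47 to 0.08, DESeq2 adjusted p = 0.447) without R788 and 0.08 (95% interval -0.20 to 0.36, DESeq2 adjusted p = 0.866) with it.

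R788 lowered Nos2 3.66-fold (95% interval 2.5 to 5.35, DESeq2 adjusted p = 3.95e-10) without TCM, 1.64-fold (95% interval 1.35 to 1.99, DESeq2 adjusted p = 1.27e-05) under NB9464 TCM and 1.98-fold (95% interval 1.63 to 2.4, DESeq2 adjusted p = 2.46e-10) under NBT3L TCM. The first value rests on which R788 library is used: without SJ8 the log2 change was -2.49 in place of -1.87, and without SJ7 it was -1.48. The call was lost when only the NS and R788 libraries were fitted (adjusted p = 0.0519). Under R788, Nos2 remained 15.4-fold (95% interval 12 to 19.8, DESeq2 adjusted p = 2.93e-101) above NS in NB9464 TCM and 14.6-fold (95% interval 11.4 to 18.7, DESeq2 adjusted p = 4.46e-97) above it in NBT3L TCM. Against R788 alone it was 56.4-fold (95% interval 39.9 to 79.8, DESeq2 adjusted p = 6.38e-113) and 53.3-fold (95% interval 37.7 to 75.5, DESeq2 adjusted p = 7.82e-110) higher, log2 values of 5.82 and 5.74 that became 6.43 and 6.35 without SJ8.

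Per length, Nos2 was at 1.03 ± 0.0517 TPM in NS, 21.8 ± 1.25 TPM under NB9464 TCM and 22.6 ± 0.324 TPM under NBT3L TCM. The ratio of Nos2 to Arg1 TPM was 0.256 and 0.273 in the NS libraries, 1.54 and 1.78 in NB9464 TCM and 0.961 and 1.03 in NBT3L TCM. With R788 the ratio was 0.272 and 0.622 without TCM, 3.96 and 4.68 under NB9464 TCM and 1.06 and 1.55 under NBT3L TCM. The ratio was higher in all 8 libraries with TCM than in the 4 without it, and highest in NB9464 TCM + R788. Set against both arginases together the order differed: Nos2 stood at 0.863 and 0.943 of their sum in NB9464 TCM and at 0.723 and 0.723 in NB9464 TCM + R788, and at 0.669 and 0.684 and then 0.461 and 0.55 in NBT3L TCM without and with R788.

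Ass1, already abundant in NS, rose with TCM, and R788 lowered it where TCM was present. NS libraries held 3889 and 4110.4 normalized counts, NB9464 TCM libraries 15103 and 16573 and NBT3L TCM libraries 18979.7 and 19534. With R788 the levels were 4029.9 and 3495 without TCM, 11082 and 10434 under NB9464 TCM and 12542 and 12667 under NBT3L TCM. The NS and R788 libraries overlapped, and all other neighbours in the order of Ass1 levels were apart. Ass1 rose 3.96-fold (95% interval 3.58 to 4.38, DESeq2 adjusted p = 2.52e-155) with NB9464 TCM and 4.81-fold (95% interval 4.35 to 5.33, DESeq2 adjusted p = 1.55e-202) with NBT3L TCM. R788 lowered it 1.47-fold (95% interval 1.33 to 1.63, DESeq2 adjusted p = 1.47e-12) in NB9464 TCM and 1.53-fold (95% interval 1.38 to 1.69, DESeq2 adjusted p = 4.46e-15) in NBT3L TCM, whereas the log2 change without TCM was -0.09 (95% interval -0.24 to 0.06, DESeq2 adjusted p = 0.427), or 0.01 without SJ8 and -0.19 (adjusted p = 0.0271) without SJ7. Against R788 alone Ass1 was 2.86-fold (95% interval 2.59 to 3.17, DESeq2 adjusted p = 2.23e-90) higher in NB9464 TCM + R788 and 3.35-fold (95% interval 3.03 to 3.71, DESeq2 adjusted p = 7.32e-120) higher in NBT3L TCM + R788, log2 values of 1.52 and 1.74 that became 1.41 and 1.64 without SJ8.

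Ass1 was 1.22-fold (95% interval 1.1 to 1.34, DESeq2 adjusted p = 0.00175) lower in NB9464 than in NBT3L TCM, and 1.17-fold (95% interval 1.06 to 1.29, DESeq2 adjusted p = 0.0222) lower when both held R788. The first call was lost without SJ3 of the NB9464 TCM group (adjusted p = 0.124) or SJ6 of the NBT3L TCM group (0.0835), and the second with edgeR (0.0834) and without any 1 of its 4 libraries. Asl, the next enzyme, was not called in any of the 6 main comparisons and stood at 2602 ± 220.4 normalized counts in NS, 2738 ± 69.3 under NB9464 TCM and 2761 ± 168 under NBT3L TCM. Per length Ass1 was 2.98 and 3.18 times Asl in the NS libraries, 10.8 and 12.3 times in NB9464 TCM and 13.6 and 14.4 times in NBT3L TCM.

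Odc1 was the member that neither TCM raised in the absence of R788. NS libraries held 4940.1 and 5056 normalized counts, NB9464 TCM libraries 3705 and 4159.8 and NBT3L TCM libraries 5114 and 5222. With R788 the levels were 2200.4 and 2096 without TCM, 2428 and 2353 under NB9464 TCM and 2777 and 2807 under NBT3L TCM. All 6 libraries with R788 lay below all 6 without it. R788 lowered Odc1 2.33-fold (95% interval 2.09 to 2.6, DESeq2 adjusted p = 3.12e-49) without TCM, 1.65-fold (95% interval 1.47 to 1.84, DESeq2 adjusted p = 8.93e-17) under NB9464 TCM and 1.85-fold (95% interval 1.66 to 2.07, DESeq2 adjusted p = 5.96e-26) under NBT3L TCM, and without SJ8 the log2 change without TCM was -1.19 in place of -1.22. Odc1 was 1.27-fold (95% interval 1.14 to 1.42, DESeq2 adjusted p = 7.91e-05) lower in NB9464 TCM than in NS and 1.31-fold (95% interval 1.18 to 1.47, DESeq2 adjusted p = 2.26e-05) lower than in NBT3L TCM.

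The log2 difference of Odc1 between NBT3L TCM and NS was 0.05 (95% interval -0.11 to 0.20, DESeq2 adjusted p = 0.716). This direction depends on the scale, since Odc1 stood at 93.5 ± 0.528 TPM in NS and 73.6 ± 1.03 TPM in NBT3L TCM, a log2 difference of -0.34. Over 10715 genes with a mean of at least 100 normalized counts the median log2 difference from NS was -0.41 in TPM and -0.02 in normalized counts, so relative to the median gene Odc1 was near NS on both scales. The corresponding medians in TPM were 0.06 with R788, -0.26 in NB9464 TCM, -0.32 in NB9464 TCM + R788 and -0.40 in NBT3L TCM + R788. In the presence of R788 the log2 difference from R788 alone was 0.15 (95% interval -0.01 to 0.32, DESeq2 adjusted p = 0.127) in NB9464 TCM + R788 and 0.38 (95% interval 0.22 to 0.54, DESeq2 adjusted p = 1.83e-05) in NBT3L TCM + R788, the latter called, and these were 0.12 and 0.34 without SJ8.

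The counts of members called stand here beside the share of all 16281 genes tested that was called. With NB9464 TCM against NS all 6 were called, 5 higher and Odc1 lower, where 34.1% of all genes tested were called (17.2% higher and 16.9% lower). With NBT3L TCM against NS 5 were called, all higher, against 35.3% of all genes (18.0% higher and 17.3% lower). Both comparisons share the NS libraries, so they are not independent. Between the TCMs, 4 members (Arg1, Slc7a2, Ass1 and Odc1) were lower in NB9464 than in NBT3L TCM and none higher, against 9.4% of all genes called (3.69% higher and 5.72% lower). Without SJ6 of the NBT3L TCM group the log2 differences of Arg1, Slc7a2 and Ass1 were -0.86, -0.45 and -0.26, and their calls were lost.

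With R788, calls were for lower levels in every medium. Without TCM 3 members (Arg1, Nos2 and Odc1) were lower, against 26.6% of all genes called (11.6% higher and 15.0% lower). Without SJ7, Ass1 was also called lower (log2 -0.19) and Arg2 higher (0.99). The calls of Arg1, Nos2 and Odc1 held without SJ8. In NB9464 TCM 4 were lower, the same genes and Ass1, against 14.5% of all genes (5.79% higher and 8.7% lower). In NBT3L TCM 5 were lower, Slc7a2 being the added one, against 12.6% of all genes (5.33% higher and 7.24% lower).

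The remaining comparisons concern TCM under R788. Against R788 alone 5 members were higher in NB9464 TCM + R788 (all but Odc1), with 40.4% of all genes called, and all 6 in NBT3L TCM + R788, with 41.4% called. Against NS, 5 members were called in NB9464 TCM + R788 (Arg2, Nos2, Slc7a2 and Ass1 higher, Odc1 lower), with 39.5% of all genes called, and 6 in NBT3L TCM + R788 (Odc1 lower, the others higher), with 39.8% called. Between the TCMs under R788, Arg1 and Ass1 were lower with NB9464, with 9.62% of all genes called.

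Whether R788 acted by a different amount in TCM was tested as an interaction. Against its effect without TCM, the effect of R788 in NB9464 TCM differed for 3 members, with 12.5% of all genes called. Nos2 fell less in NB9464 TCM, by a log2 difference of 1.16 (95% interval 0.55 to 1.77, DESeq2 adjusted p = 0.00284), and so did Odc1, by 0.50 (95% interval 0.28 to 0.73, DESeq2 adjusted p = 0.000249). Ass1 fell more, by -0.47 (95% interval -0.68 to -0.26, DESeq2 adjusted p = 0.000168). Without SJ8 the Odc1 and Ass1 values were 0.47 and -0.57. The Nos2 call was lost without SJ7 (0.77, adjusted p = 0.103), and its value was 1.78 without SJ8.

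In NBT3L TCM the effect of R788 differed for 4 members, with 10.1% of all genes called. Arg1 fell less than without TCM, by 1.28 (95% interval 0.56 to 2.0, DESeq2 adjusted p = 0.00633). Nos2 and Odc1 also fell less, by 0.89 (95% interval 0.27 to 1.5, DESeq2 adjusted p = 0.0386) and 0.33 (95% interval 0.11 to 0.55, DESeq2 adjusted p = 0.0326), and Ass1 fell more, by -0.52 (95% interval -0.73 to -0.32, DESeq2 adjusted p = 2.13e-05). The Nos2 and Odc1 calls were lost with edgeR (adjusted p = 0.081 and 0.0708) and without most single libraries, the Odc1 value without SJ8 being 0.29 and the Nos2 value ranging from 0.49 without SJ7 to 1.5 without SJ8. The Arg1 call was lost without SJ2 of the NS group (1.16), SJ5 of the NBT3L TCM group (1.22) or SJ12 of the NBT3L TCM + R788 group (1.1). Without SJ8 the Arg1 value was 1.19 (adjusted p = 0.0488) and that of Ass1 -0.62. The Ass1 calls held in all alternatives run. Between the 2 TCMs no member differed in its response to R788 by DESeq2 or by edgeR over all 12 libraries, with 0.706% of all genes called, whereas Slc7a2 was called with DESeq2 on the libraries compared alone (0.49, adjusted p = 0.034). Arg1 and Slc7a2 had unadjusted p-values under 0.05 there, with log2 differences of -0.75 (95% interval -1.36 to -0.14, DESeq2 adjusted p = 0.42) and 0.49 (95% interval 0.14 to 0.83, DESeq2 adjusted p = 0.264).

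Around these genes, the other transporters of arginine and ornithine (7 of 8 tested, Slc25a2 not tested) rose in part with TCM. With NB9464 TCM 5 were higher and none lower (median log2 change 0.42), and with NBT3L TCM 4 were higher and 1 lower (0.58). The shares of all genes called in these comparisons were 34.1% and 35.3%, and with R788 26.6% without TCM, 14.5% under NB9464 TCM and 12.6% under NBT3L TCM. Over all genes tested the median was 0.02 with NB9464 TCM and 0.00 in each of the other 5 main comparisons. Slc25a29, a mitochondrial carrier of basic amino acids, rose by 2.15 and 1.44, and Slc3a2, the heavy chain shared by several exchangers, by 0.30 and 0.64. Slc7a7, a light chain that exports arginine, rose by 0.49 and 0.86, and Slc7a6, of similar function, by 0.71 and 0.58. With R788, Slc7a6 fell by 0.65 without TCM, the only call there, and Slc7a1 fell by 0.38 under NB9464 TCM and by 0.34 under NBT3L TCM. The list had medians of -0.03, 0.10 and -0.13 for R788 in the 3 media, with 1 called lower in each and Slc3a2 called higher (0.16) in NB9464 TCM. Slc7a1 was higher (0.85) and Slc3a2 lower (-0.34) in NB9464 than in NBT3L TCM (list median 0.13). Of the other enzymes of the urea cycle, Asl alone was tested, since Otc, Cps1, Nags and Agmat did not pass the filter.

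Among 10 genes of nitric oxide synthases, their cofactor and their inhibitors (9 tested, Nos1 not tested), 3 were called with NB9464 TCM and 2 with NBT3L TCM, where 34.1% and 35.3% of all genes were. Gch1, the rate-limiting enzyme of tetrahydrobiopterin synthesis, was the one called higher with TCM (log2 0.71 with NB9464 and 1.1 with NBT3L TCM). It stood at 2446 ± 229 normalized counts in NS, 4001 ± 103 under NB9464 TCM and 5237 ± 14.4 under NBT3L TCM. Gch1 also fell with R788, by 0.33 without TCM, by 0.50 under NB9464 TCM and by 0.58 under NBT3L TCM. Ddah2, listed here with the genes of synthase inhibitors, was lower with NB9464 TCM (-1.3), and Pts, of cofactor synthesis, was higher with R788 in NBT3L TCM (0.52). Gch1 (-0.39) was lower in NB9464 than in NBT3L TCM. The list medians were -0.05 and -0.07 with the TCMs, -0.39 between them and -0.21, 0.10 and -0.26 with R788, and Nos3, Gchfr and Ddah1 stayed under 100 counts in every library.

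The 14 polyamine genes, all tested, split in direction. With NB9464 TCM 4 were higher and 5 lower (median 0.04), and with NBT3L TCM 5 were higher and 5 lower (0.15), against 34.1% and 35.3% of all genes called. Srm, spermidine synthase, rose by 1.07 and 0.90 while Odc1 was not called higher, and Sat1, which acetylates polyamines for export, fell by 0.41 and 0.62. Dohh, which modifies the spermidine-dependent factor eIF5A, rose by 0.53 and 0.51, and Amd1, which makes decarboxylated S-adenosylmethionine, by 0.48 and 0.53. Paox, a polyamine oxidase, fell by 0.68 with NBT3L TCM. R788 without TCM lowered 7 and raised 3 (median -0.24), against 26.6% of all genes called. Sms, spermine synthase, fell by 0.84, Azin1, which protects ornithine decarboxylase from antizyme, by 0.80 and Eif5a by 0.68. In NB9464 TCM R788 lowered 3 and raised 1 (median -0.02), against 14.5% of all genes called. Among them Oaz2, an antizyme, was at 0.37, Sms at -0.29 and Srm at -0.28. In NBT3L TCM R788 lowered Smox, spermine oxidase, alone (-0.27, list median -0.01), against 12.6% of all genes called. Between the TCMs Smox was lower (-0.45) and Sat1 higher (0.21) with NB9464, with a median of -0.02.

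**Figure D4:**
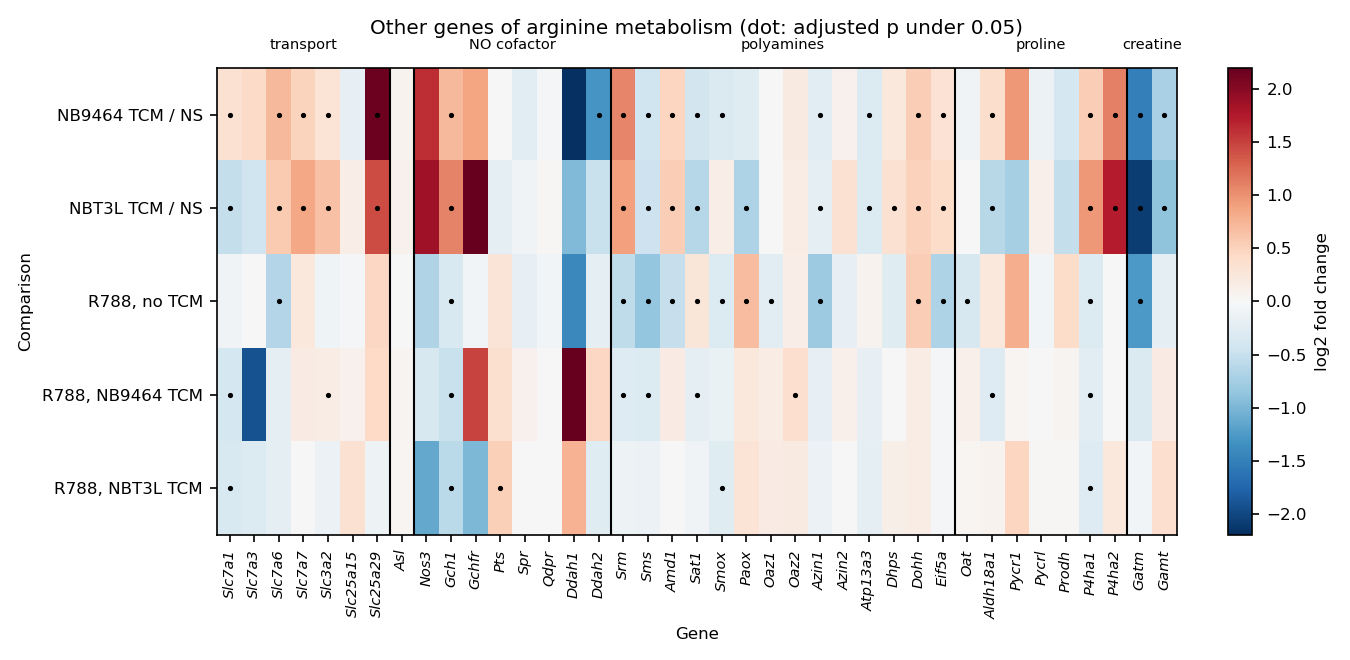
Log2 fold change (colour, blue lower and red higher) of 39 tested genes of the pathway lists in 5 comparisons, and dots for adjusted p under 0.05 (DESeq2). Gch1 and Srm were higher with both TCMs, Gatm lower with both, and fewer genes carry dots in the R788 rows with TCM than in the row without it.

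Of 8 genes at the proline and ornithine branches, 4 were higher with NB9464 TCM (median 0.46) and 3 higher and 1 lower with NBT3L TCM (0.06), against 34.1% and 35.3% of all genes called. P4ha2 and P4ha1, subunits of the collagen prolyl hydroxylase, rose by 1.1 and 0.53 with NB9464 TCM and by 1.73 and 0.95 with NBT3L TCM. Aldh18a1, the entry of glutamate into proline and ornithine synthesis, was higher with NB9464 TCM (0.38) and lower with NBT3L TCM (-0.62). It was higher in NB9464 than in NBT3L TCM (0.99), as was Pycr1 (1.69), whereas P4ha2 (-0.63) and P4ha1 were lower (list median 0.01). Oat, which takes ornithine toward proline, fell by 0.35 with R788 without TCM, and P4ha1 fell with R788 in all 3 media (-0.30, -0.24 and -0.29). In NB9464 TCM R788 also lowered Aldh18a1 (-0.28). List medians with R788 were 0.03 without TCM, close to 0 under NB9464 TCM and 0.05 under NBT3L TCM.

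The creatine genes, which draw on arginine for guanidinoacetate, were lower with both TCMs (2 of 2 called, medians -1.10 and -1.49). Of all genes 34.1% and 35.3% were called there. Gatm, the first enzyme, stood at 2338 ± 178 normalized counts in NS, 828 ± 1.53 under NB9464 TCM and 548 ± 41.9 under NBT3L TCM, log2 changes of -1.5 and -2.09. Gamt, the second, changed by -0.71 and -0.88. Gatm fell by 1.26 with R788 without TCM and neither gene was called with R788 in TCM, and Gatm was higher in NB9464 than in NBT3L TCM (0.59).

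Genes known to act upstream of Arg1 (11, all tested) moved in both directions, 5 higher and 5 lower with each TCM (medians -0.12 and 0.37), against 34.1% and 35.3% of all genes called. Cebpb, which encodes C/EBPbeta, rose by 1.09 and 1.17, Hif1a by 0.86 and 1.41 and Il4ra, the IL-4 receptor chain, by 0.84 and 1.16. Epas1 (HIF2alpha) was at -2.47 and -2.84, Pparg at -2.41 and -2.42 and Klf4 at -1.42 and -1.68. With R788 without TCM 5 were higher and 2 lower (median 0.07, 26.6% of all genes called), Pparg at -1.66, Klf4 at 0.83 and Epas1 at -0.65. In NB9464 TCM R788 raised Cebpb (0.20) and lowered Epas1 (-0.71), Il4ra (-0.22) and Stat3 (median -0.13), and in NBT3L TCM it lowered Stat3 (-0.27) and Il4ra (-0.22, median -0.22). Hif1a (-0.55) and Il4ra (-0.32) were lower in NB9464 than in NBT3L TCM, as Arg1 was.

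Of 9 genes upstream of Nos2, all tested and Hif1a among them again, 4 were higher and 4 lower with NB9464 TCM (median -0.05), and 4 higher and 3 lower with NBT3L TCM (-0.07), against 34.1% and 35.3% of all genes called. Nfkb1 rose by 0.69 with NBT3L TCM, whereas the receptors Ifngr1 (-0.82 and -0.89) and Tlr4 (-0.71 and -0.94) were lower with both TCMs. Irf1 was lower with NB9464 TCM (-0.71) and, by a smaller fitted amount, with NBT3L TCM. With R788 without TCM 1 gene was called higher and 1 lower (median 0.07, Nfkb1 0.22), against 26.6% of all genes. In NB9464 TCM 2 were higher and 1 lower with R788 (0.05, Ifngr1 0.53 and Ifngr2 0.31), against 14.5%. In NBT3L TCM 2 were higher and 2 lower with R788 (0.03, Irf1 -0.28), against 12.6%. Between the TCMs 5 were lower with NB9464, among them Irf1 (-0.42), and 1 higher (median -0.21), against 9.4% of all genes called.

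Other genes of IL-4 activated macrophages did not follow Arg1 as a group. Of 12 genes 10 were tested (Retnla and Ccl17 were not), 2 higher and 4 lower with NB9464 TCM, and 1 higher and 3 lower with NBT3L TCM, against 34.1% and 35.3% of all genes called. Mrc1, the mannose receptor CD206, stood at 27165 ± 1550.0 normalized counts in NS, 2664 ± 209 under NB9464 TCM and 4569.5 ± 206 under NBT3L TCM, log2 changes of -3.35 and -2.57. R788 lowered Mrc1 further in NB9464 TCM (-1.6) and NBT3L TCM (-1.08). Pdcd1lg2, which encodes the checkpoint ligand PD-L2, was called higher with both TCMs at low levels (0.474 normalized counts in NS, 20.2 and 31.6 with the TCMs), and Flt1, a VEGF receptor, was called lower (70.7, then 8.55 and 6.96). Clec10a, a lectin, was also lower with both TCMs (-2.62 and -1.86). R788 called 1 gene higher (Clec10a, 0.81) and 2 lower without TCM (Chil3, -0.50, and Ccl22, from 30.7 to 2.27 normalized counts), 1 lower under NB9464 TCM and 3 lower under NBT3L TCM, where Egr2 fell by 1.68. Of all genes 26.6%, 14.5% and 12.6% were called with R788 in the 3 media. Chil3 was higher (1.0) and Mrc1 lower (-0.78) in NB9464 than in NBT3L TCM. No median is given, since Mgl2, Ccl24 and Flt1 had a group at 0 counts.

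Genes of macrophages activated by interferon gamma and LPS (13, all tested) were mostly higher with TCM. With NB9464 TCM 8 were higher and 2 lower (median 3.60), and with NBT3L TCM 9 were higher and 1 lower (3.53), against 34.1% and 35.3% of all genes called. Cd38, an NAD hydrolase, stood at 51.8 ± 38.4 normalized counts in NS, 16166 ± 778 under NB9464 TCM and 12458 ± 388 under NBT3L TCM. Il12b and Il6, cytokine genes, went from 2.82 and 1.9 normalized counts in NS to 613 and 293 under NB9464 TCM and 664 and 691 under NBT3L TCM. R788 lowered 7 and raised 2 without TCM, lowered 5 and raised 1 under NB9464 TCM and lowered 8 under NBT3L TCM, where 26.6%, 14.5% and 12.6% of all genes were called. Cxcl10, an interferon-induced chemokine, fell by 2.09, 2.02 and 2.09 with R788 in the 3 media, Ptgs2 (cyclooxygenase 2) by 1.0 and 1.27 in the TCMs, and Cd86, a costimulatory ligand, by 0.97 and 1.14. In NB9464 TCM 6 were lower than in NBT3L TCM and none higher, led by Il1b (-3.16), Ptgs2 (-1.29) and Il6 (-1.24), while Nos2 was not called between the TCMs. Of all genes 9.4% were called between the TCMs (3.69% higher and 5.72% lower). Medians with R788 were -0.42 in NB9464 TCM and -0.50 in NBT3L TCM, and -0.27 between the TCMs. Il12b and Il6 had no counts in the R788 libraries, so no fold against that group and no median without TCM is given, while Cd38 fell there from 51.8 to 8.43 normalized counts.

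Across the 12 libraries the members' profiles differed in likeness. Pearson's r of log2(normalized count + 1) was 0.98 for Nos2 with Slc7a2, 0.96 for Slc7a2 with Ass1 and 0.96 for Slc7a2 with Arg2, and 0.87 for Arg1 with Nos2. For Arg1 with Arg2 it was 0.64, and Odc1 had 0.66 with Arg1 and -0.11 with Arg2. These values describe 12 libraries in 6 groups and mix the differences of TCM and of R788. Over 10699 genes that averaged 100 normalized counts or more, the profiles most like that of Arg1 were 2010005H15Rik (r = 0.996), Lcp1 (r = 0.988) and Cct6a (r = 0.983). Like Arg1, 2010005H15Rik stood low with R788 (30.0 normalized counts against 159 in NS) and highest in NBT3L TCM (1674). For Arg2 they were Mras (r = 0.995), Pafah2 (r = 0.995) and Abcc5 (r = 0.993), for Nos2 Ccl3 (r = 0.995), Lrrc59 (r = 0.994) and Mfap3l (r = 0.99), for Slc7a2, among others, Slpi (r = 0.997) and Cybb (r = 0.996), for Ass1 Glis3 (r = 0.992), Alas1 (r = 0.99) and Ptgr1 (r = 0.99) and for Odc1 Dusp5 (r = 0.983), Dhx58 (r = 0.982) and Bst2 (r = 0.981). Dhx58 and Bst2 both stood lowest in the groups with R788.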

How the data were processed

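RNA from BMDMs was sequenced as poly(A) libraries, 12 libraries in 6 groups of 2, grouped by the labels. The methods speak of triplicates, and 2 libraries per group were analysed here. The deposited table holds whole-number counts per Ensembl gene, with no scaling, and a gene length that equalled the merged exon length of GENCODE M21 for 97.3% of IDs. Per the labels and methods, the authors mapped reads to mm10 with STAR 2.6.1d and quantified with Salmon 1.4.0 in a bcbio pipeline; SAMtools 1.9, Picard 2.26 and MultiQC 1.11 appear in the submitters' processing notes. Settings for strand and for reads that map to several places are not given in the sources used here. The labels state paired reads and the methods single reads, and 65.2% to 67.9% of counts from 1 to 40 were even, so low counts may hold both mates of a pair and carry more counting error than their size shows.

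The 16281 genes that reached 10 counts in 2 or more libraries were tested with DESeq2 1.42.0 (R 4.3.3, Wald test, 6 group means over all libraries, Benjamini-Hochberg adjustment, threshold 0.05). The adjustment ran over the genes that the default independent filter of DESeq2, which drops low mean counts, kept in each comparison. Genes to which DESeq2 gave no adjusted p (0 to 4419 in a comparison) counted as not called. Interactions were contrasts in the same fit. Intervals are 95% Wald intervals. TPM were computed from counts and deposited lengths. The members, gene lists and tests were chosen with earlier results of these data known. From each list up to 3 called genes with the largest change were named per comparison, with some further list genes chosen after their values were seen, and per member the 3 genes of highest correlation. Some genes that these rules name are not reported here. The fit was checked on counts simulated from its own size factors and dispersions. Such a check cannot show how well that model describes these libraries. Alternatives were edgeR 4.0.16 (quasi-likelihood test), TMM scaling, no count filter or a mean of at least 50 counts, counts divided by 2, only the libraries compared, and leaving out each library.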

Additional observations from a re-analysis of the deposited data

Results flagged for a closer look

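The results set apart here are those in which the response to R788 differed between media by the interaction test of DESeq2 (adjusted over the genes kept by its filter). Arg1 fell less with R788 in NBT3L TCM than without TCM, by 1.28 on the log2 scale (adjusted p = 0.00633), a call lost without SJ2, SJ5 or SJ12 (1.16, 1.22 and 1.1). For Nos2 the differences from the effect without TCM were 1.16 in NB9464 TCM (adjusted p = 0.00284) and 0.89 in NBT3L TCM (0.0386), and for Odc1 they were 0.50 (adjusted p = 0.000249) and 0.33 (0.0326), both genes falling less in TCM. The Nos2 call in NB9464 TCM was lost without SJ7 (0.77), and the Nos2 and Odc1 calls in NBT3L TCM were lost with edgeR and without most single libraries (Nos2 from 0.49 to 1.5). Ass1 differed in the opposite direction, by -0.47 in NB9464 TCM (adjusted p = 0.000168) and -0.52 in NBT3L TCM (2.13e-05). The interactions share the NS and R788 libraries, so they are not independent of each other. Groups of 2 libraries are too small for an outlier test.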

How the results depend on the processing

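Each of 84 member comparisons was refitted under 18 other settings, which gave 1495 values. Direction and side of the threshold were kept in 1429 values, a call was lost in 45, gained in 8 and the sign turned in 13, and 60 comparisons kept their call under every setting run. The sign turned only for differences that were not called, each time with 1 library left out. As reported, the largest of these was Arg2 in the interaction of NB9464 TCM with no TCM (-0.29). With 1 library left out the log2 difference ranged from -0.20 to 0.045 for Arg1 in NB9464 TCM + R788 against NS, -0.24 to 0.044 for Arg2 between the TCMs, -0.075 to 0.12 for Arg2, -0.032 to 0.20 for Nos2 and -0.15 to 0.051 for Slc7a2 between the TCMs under R788, and -0.19 to 0.0093 for Ass1 with R788 against NS. Interactions ranged from -0.80 to 0.098 (Arg2, NB9464 TCM and no TCM), -0.020 to 0.22 (Arg2, between the TCMs), -0.051 to 0.20 (Slc7a2, NBT3L TCM and no TCM) and -0.012 to 0.12 (Ass1, between the TCMs). The count of members called between the TCMs ranged from 1 to 4 with 1 library left out, that of R788 against NS from 3 to 5, that between the TCMs under R788 from 1 to 3, that of the interaction of NB9464 TCM with no TCM from 2 to 4 and that of NBT3L TCM with no TCM from 1 to 3. With only the libraries compared, R788 against NS had 2 members called. With edgeR the count was 1 between the TCMs under R788 and 2 for the interaction of NBT3L TCM. The latter was also 2 with counts divided by 2 and with only the libraries compared, and with only those libraries 1 member (Slc7a2, 0.49, adjusted p = 0.034) was called in the interaction between the TCMs. The cause of these changes was not tested. No paired analysis was run, since the labels give each library its own number and do not state whether libraries of different groups are paired. Levels under about 60 raw counts (Arg1 and Nos2 with R788 alone, Arg2 without TCM) limit the precision of the comparisons against those groups, and a group left with 1 library is assumed to vary like the others.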
